A study of Homo sapiens with 19 samples.

Results

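The BMP signals and ID genes are 9 genes that can be followed from ligand to nuclear response: the ligands BMP2, BMP4 and BMP7, the secreted antagonists GREM1 and NOG, and the target genes ID1, ID2, ID3 and ID4. They were matched by Ensembl identifier among 32703 identifiers that every matrix lists, and all 9 were found. Human liver organoids (HLOs) grown from W01, an established human pluripotent stem cell line from WiCell with a wild-type genotype per the labels, were dissociated with trypsin and profiled with droplet single-cell RNA sequencing (10x Genomics 3′ v3), which counts each captured transcript once as a unique molecular identifier (UMI). The 19 libraries form 9 groups. Organoids in ULA culture were taken on day 21 (n = 3) and day 34 (n = 2) with no treatment. Organoids in OS culture were all taken on day 25 (n = 2 per group): untreated, TGFB1 at 10 ng/ml with its control, PA at 500 µM with its control, and OA at 500 µM with its control. Per the labels, OS organoids had 20 days of culture before treatment, and TGFB1 or PA was given for 5 days. The labels do not spell out ULA, OS, PA or OA, and the treatment length stated for TGFB1 and PA does not name OA. Day 34 ULA organoids and those of every OS group had 10 more minutes of trypsin and 1 more wash than the day 21 ones. Every library comes from 1 cell line, and nothing in the labels says that replicates are separate differentiations, so the p-values measure the spread between these libraries, which may be technical.

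Bone morphogenetic proteins (BMPs) are secreted dimers that bind pairs of type I and type II serine/threonine kinase receptors, which phosphorylate SMAD1, SMAD5 and SMAD9. These enter the nucleus with SMAD4 and switch on target genes, the ID genes among the fastest. GREM1 (gremlin 1) and NOG (noggin) bind BMP ligands outside the cell and keep them from the receptors. ID proteins are helix-loop-helix proteins with no DNA-binding region that capture partners such as TCF3, TCF4 and TCF12. In liver, BMP ligands from mesenchyme and endothelium act on developing hepatoblasts, and BMP6 acts through the same SMADs to set hepcidin (HAMP).

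In GRCh38 with the GENCODE v44 annotation the ligand genes lie as follows: BMP2 at chr20:6767686-6780246 (+ strand), BMP4 at chr14:53949736-53958761 (- strand) and BMP7 at chr20:57168753-57266641 (- strand). The antagonist genes are GREM1 at chr15:32718004-32745106 (+ strand) and NOG at chr17:56593699-56595611 (+ strand). The targets are ID1 at chr20:31605283-31606515 (+ strand), ID2 at chr2:8678845-8684461 (+ strand), ID3 at chr1:23557926-23559501 (- strand) and ID4 at chr6:19837370-19842197 (+ strand). UMIs of a 3′ assay count transcripts of the whole gene.

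The ID genes are the nuclear targets among the members, so the 250 bases upstream of each RefSeq transcription start are shown, 5′ to 3′ on the gene's strand (GRCh38.p14). RefSeq and GENCODE starts differ for ID2, whose window lies inside its GENCODE interval, and for ID1, whose window runs a few bases past its GENCODE start. Capitals mark GTCT or its reverse complement AGAC, the short sequence that SMAD proteins can bind.

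ID1 (chr20:31605039-31605288, + strand): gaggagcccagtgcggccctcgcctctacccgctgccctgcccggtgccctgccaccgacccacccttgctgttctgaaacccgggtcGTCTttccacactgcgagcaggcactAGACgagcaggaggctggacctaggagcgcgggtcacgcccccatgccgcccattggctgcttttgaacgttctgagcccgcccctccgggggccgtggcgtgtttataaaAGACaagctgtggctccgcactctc
ID2 (chr2:8681806-8682055, + strand): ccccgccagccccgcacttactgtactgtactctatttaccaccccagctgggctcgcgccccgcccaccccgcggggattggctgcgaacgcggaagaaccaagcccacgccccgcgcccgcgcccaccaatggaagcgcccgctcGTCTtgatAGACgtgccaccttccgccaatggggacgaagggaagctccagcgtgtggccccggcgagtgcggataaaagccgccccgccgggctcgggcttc
ID3 (chr1:23559502-23559751, - strand): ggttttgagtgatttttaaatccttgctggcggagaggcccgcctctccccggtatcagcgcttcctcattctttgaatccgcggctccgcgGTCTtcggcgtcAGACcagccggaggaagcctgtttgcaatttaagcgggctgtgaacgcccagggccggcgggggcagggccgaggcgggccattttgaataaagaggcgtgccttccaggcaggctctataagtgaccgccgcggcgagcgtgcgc
ID4 (chr6:19837120-19837369, + strand): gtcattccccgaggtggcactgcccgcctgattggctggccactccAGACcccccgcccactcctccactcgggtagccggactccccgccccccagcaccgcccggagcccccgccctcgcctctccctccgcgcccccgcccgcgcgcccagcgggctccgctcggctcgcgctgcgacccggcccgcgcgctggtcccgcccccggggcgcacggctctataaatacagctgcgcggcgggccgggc

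Counting both strands, GTCT occurs 3 times upstream of ID1, 2 times each upstream of ID2 and ID3, and 1 time upstream of ID4, and 77.5% of 35116 RefSeq promoter windows of this length hold at least 1. The GC-rich sequence GGCGCC, to which BMP SMADs can bind, is in none of the 4 windows and in 16.4% of all windows. The E-box CANNTG is in the ID2 and ID4 windows (1 each) and in 61.8% of all windows. CCAAT occurs 3 times upstream of ID2 and 1 time each upstream of ID1 and ID4, against 32.0% of all windows with at least 1. These are matches of letters and say nothing of binding in the organoids. Sequence outside the windows of 250 bases was not searched, so a motif absent here can lie further away.

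The rule keeps cells in which 500 or more genes were detected and no more than 20% of counts were mitochondrial (3089 to 12427 cells per library). UMIs of these cells were summed per library, so the library is the replicate, and a level is given as CPM, the UMIs of a gene scaled to a common library total. The 2 cell classes were cut from each library by the rule: EPCAM+ cells have at least 1 UMI of the epithelial adhesion gene EPCAM and none of COL1A2 or COL3A1, and COL+ cells have at least 1 UMI of either collagen gene and none of EPCAM. Of the markers outside the rule, the summed level of 10 epithelial genes was 4877 to 12020 CPM in EPCAM+ cells of the OS libraries and 1055 to 4592 CPM in their COL+ cells, without overlap. The 10 mesenchymal genes overlapped as a sum, at 192 to 6000 CPM in EPCAM+ cells and 3720 to 11225 CPM in COL+ cells of the OS libraries. Both TGFB1 libraries (6000 and 5208 CPM in EPCAM+ cells) lay above the lowest COL+ value. Gene by gene, only VIM (up to 5601 CPM in EPCAM+ cells, from 1509 CPM in COL+ cells) and TCF21 of the mesenchymal genes overlapped between the classes there. Of the epithelial genes KRT18 (from 735 CPM in EPCAM+ cells, up to 2038 CPM in COL+ cells), KRT19, CLDN6, ESRP1 and SPINT2 overlapped in the OS libraries. All 8 hepatocyte genes (ALB, AFP, APOA1 and others) were detected in the EPCAM+ cells of every library of at least 50 such cells, with ALB down to 0.101 CPM in OS. So were all 5 gut, 4 ductal and 5 cycling genes. In COL+ cells at least 7 of the 8 hepatocyte genes were detected in ULA and at least 5 in OS. Their sum in OS was 2942 to 26991 CPM in EPCAM+ and 127 to 2429 CPM in COL+ cells. The 4 blood genes summed to 0.350 to 0.855 CPM in ULA and 5.59 to 82.3 CPM in OS libraries, where CD14 was at 0 in 11 of 14 and PTPRC in 6 of 14 while CD68 was at 5.51 to 82.3 CPM. The 4 neural genes summed to 4.17 to 58.8 CPM in ULA and 6.09 to 240.5 CPM in OS, with STMN2 in every library and SOX10 at 0 in 4 of 5 ULA and 3 of 14 OS libraries. Because 1 UMI suffices, the split can depend on depth, whose part was not tested. Median UMIs per kept cell ran from 1310 to 14304.5. Cells with both markers were 29.8% to 59.7% of kept cells in ULA and 1.93% to 32.0% in OS, with the highest share in ULA day 34 replicate 2 (median 5959 UMIs). Cells with neither reached 44.7% in TGFB1 control replicate 1, the shallowest library per cell. Library pairs shared at most 0.581% of the smaller library's barcodes. Classes of under 50 cells were left out, so ULA day 34 replicate 1 (23 EPCAM+ cells) and OA replicate 2 (38 COL+ cells) enter no result for that class, and day 34 or OA then rests on 1 library whose spread is taken to be that of the other groups.

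Across the 9 groups BMP2, which in embryos patterns heart and bone, ran opposite to BMP4 and BMP7. BMP2 was lowest in ULA culture, at 4.39, 4.85 and 5.61 CPM on day 21, and highest in OA, at 90.6 and 104 CPM. BMP4, a ligand with a part in the induction of liver from foregut, was highest on ULA day 21, at 57.5, 64.3 and 55.6 CPM, and lowest in OA, at 1.76 and 1.92 CPM. BMP7, best known from kidney development, was at 39.2, 27.9 and 35.7 CPM on ULA day 21 and at 2.17 and 2.40 CPM in OA. Neither OA library overlapped any other library for these 3 genes. GREM1 had the highest ratio of highest to lowest library, from 0.408 CPM in OA replicate 1 to 49.5 CPM in untreated OS replicate 1, and its next groups below untreated OS, ULA day 34 and OA control, overlapped it. NOG stayed low, between 0.115 and 7.68 CPM, with the top 2 groups both in ULA culture.

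The ID genes varied less between groups. ID1 ran from 205 CPM in untreated OS replicate 2 to 1409 CPM in ULA day 34 replicate 1, and each of the 7 groups from ULA day 34 down to OA overlapped the next one below it in the order of means. ID3 ran from 228 CPM in untreated OS replicate 2 to 1052 CPM in ULA day 34 replicate 1. By group mean, ID2 was highest in TGFB1 control (370.3 and 178 CPM) and lowest in OA control (55.8 and 88.7 CPM). ID4 was highest in ULA day 34 (148 and 78.3 CPM) and lowest in OA (12.0 and 18.8 CPM). Each of these groups overlapped its neighbour in the order of means. ULA and OS libraries differ in culture, day and the gene models counted (58721 genes listed in ULA, 33538 or 36601 in OS), which cannot be told apart, so no test was made across them. The TGFB1 and PA libraries differ from the OA and untreated libraries in the software version of their headers, so across these sets levels were not tested, and only changes against each treatment's own controls were compared.

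**Figure D1:**
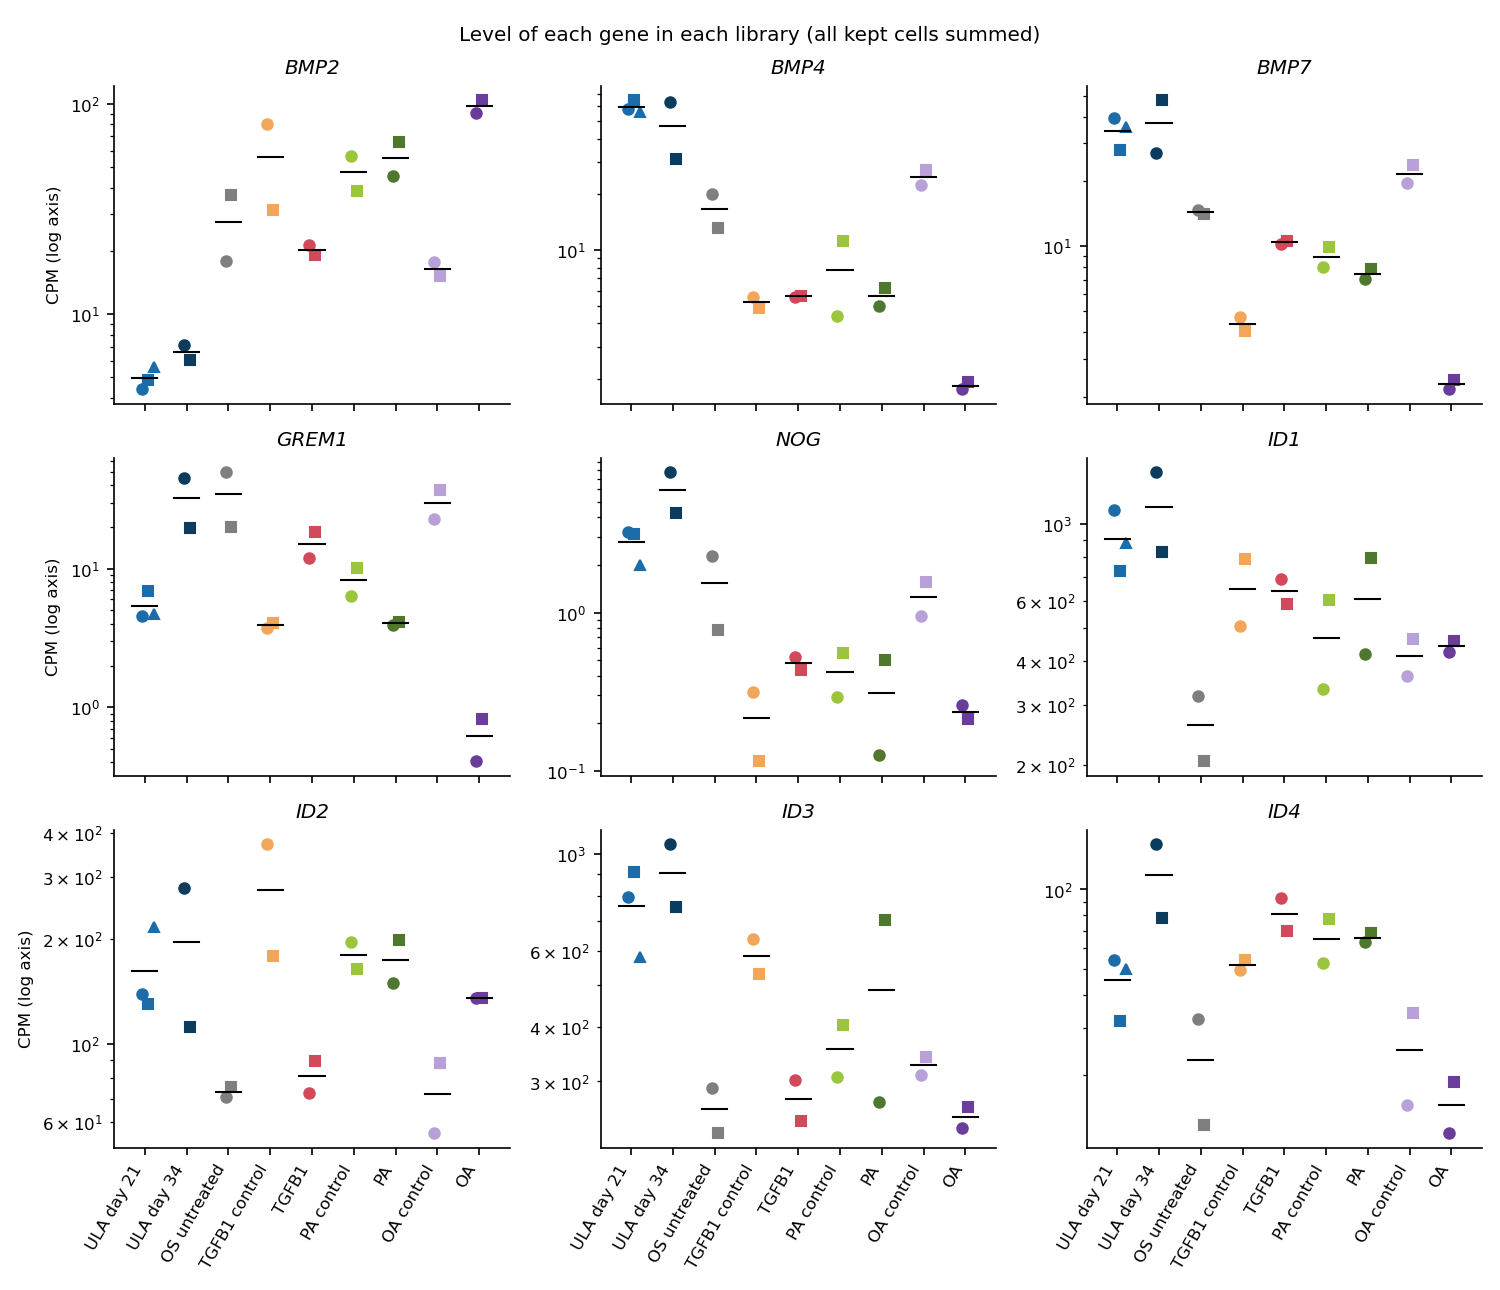
Level of each of the 9 genes in each library, in CPM on a log axis, by group; circles, squares and triangles are replicates 1, 2 and 3, and the line is the group mean. BMP2 is highest and BMP4, BMP7 and GREM1 are lowest in the OA libraries.

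Antagonists and BMP4 lay on the collagen side of the organoids and BMP2 on the epithelial side. In the fit that sets COL+ against EPCAM+ cells of the same library, averaged over the OS groups (13 libraries), 7 of the 9 genes differed, beside 50.8% of 18747 genes tested, and in ULA (4 libraries) 6 of 9 differed, beside 53.1% of 19879. GREM1 was at 54.5 to 136 CPM in COL+ cells of the OS libraries other than OA and at 0.196 to 2.27 CPM in their EPCAM+ cells, the groups not overlapping, with a log2 difference of 6.44 (SE 0.50, edgeR adjusted p 2.28e-09). In ULA the log2 difference of GREM1 was 4.12 (SE 0.45, edgeR adjusted p 0.00200), and 3.10 without ULA day 34 replicate 2. Free RNA in the droplets was not told apart from expression for GREM1, NOG and BMP4 in EPCAM+ cells. NOG was higher in COL+ cells by 4.52 in OS (SE 0.55, 3.67 without OA replicate 1), in 12 of 13 libraries, and by 2.20 in ULA (SE 0.28, edgeR adjusted p 4.83e-08, 3.72 without ULA day 34 replicate 2). The OS exception was TGFB1 replicate 2 (0.251 against 0.336 CPM), and 7 of the 13 COL+ values of NOG rest on 1 to 4 UMIs. The EPCAM+ values of NOG in these 13 libraries rest on 0 to 12 UMIs. In OS, NOG passed the filter on low counts through its COL+ values alone. Its call there, 1 of the 7, is therefore not separate support.

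BMP4 was at 83.2 to 127 CPM in COL+ cells of the ULA libraries against 5.25 to 17.2 CPM in EPCAM+ cells, a log2 difference of 3.37 (SE 0.13, edgeR adjusted p 7.09e-20). In OS it was higher in COL+ cells of 12 of 13 libraries. The exception was OA replicate 1, whose 60 COL+ cells held no BMP4 UMI, and with that library the model gave no usable estimate. Without it the log2 difference was 2.86 (SE 0.10, edgeR adjusted p 1.48e-16). BMP2 went the other way in all 13 OS libraries and all 4 ULA libraries, with log2 differences of -2.21 (SE 0.09, edgeR adjusted p 9.85e-19) and -1.83 (SE 0.23, edgeR adjusted p 1.24e-06). BMP7 had no common side: it was higher in COL+ cells in 8 of 13 OS libraries, where PA and PA control had 19.4 to 45.4 CPM in COL+ and 4.49 to 5.62 CPM in EPCAM+ cells while both OA controls had 9.99 and 10.8 against 22.3 and 28.9 CPM.

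The targets split as well. ID1 was lower in COL+ cells of all 13 OS and all 4 ULA libraries (log2 difference -1.26, SE 0.07, edgeR adjusted p 1.18e-12 in OS, and -0.75, SE 0.08, edgeR adjusted p 2.22e-08 in ULA). ID3 was higher in COL+ cells of the same 17 libraries, by 0.90 in OS (SE 0.05, edgeR adjusted p 8.53e-15) and by 0.93 in ULA (SE 0.07, edgeR adjusted p 6.53e-14, 1.42 without ULA day 34 replicate 2). So the 2 targets with the highest levels were on opposite sides of the split in each of these 17 libraries. ID2 was lower in COL+ cells in all 13 OS libraries (-1.28, SE 0.07, edgeR adjusted p 2.28e-13), and in ULA its log2 difference of 0.07 (SE 0.09) did not pass. ID4 was lower in COL+ cells in 8 of 13 OS libraries (-0.76, SE 0.16, edgeR adjusted p 0.00109) and higher in both untreated, both OA control and 1 TGFB1 control library, with -0.07 in ULA (SE 0.09, not past the threshold). Adding cells with both markers to each class, which then share those cells, brought the log2 difference in OS to 3.54 for GREM1, -0.73 for BMP2, -0.56 for ID1 and 0.40 for ID3 with every call kept.

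**Figure D2:**
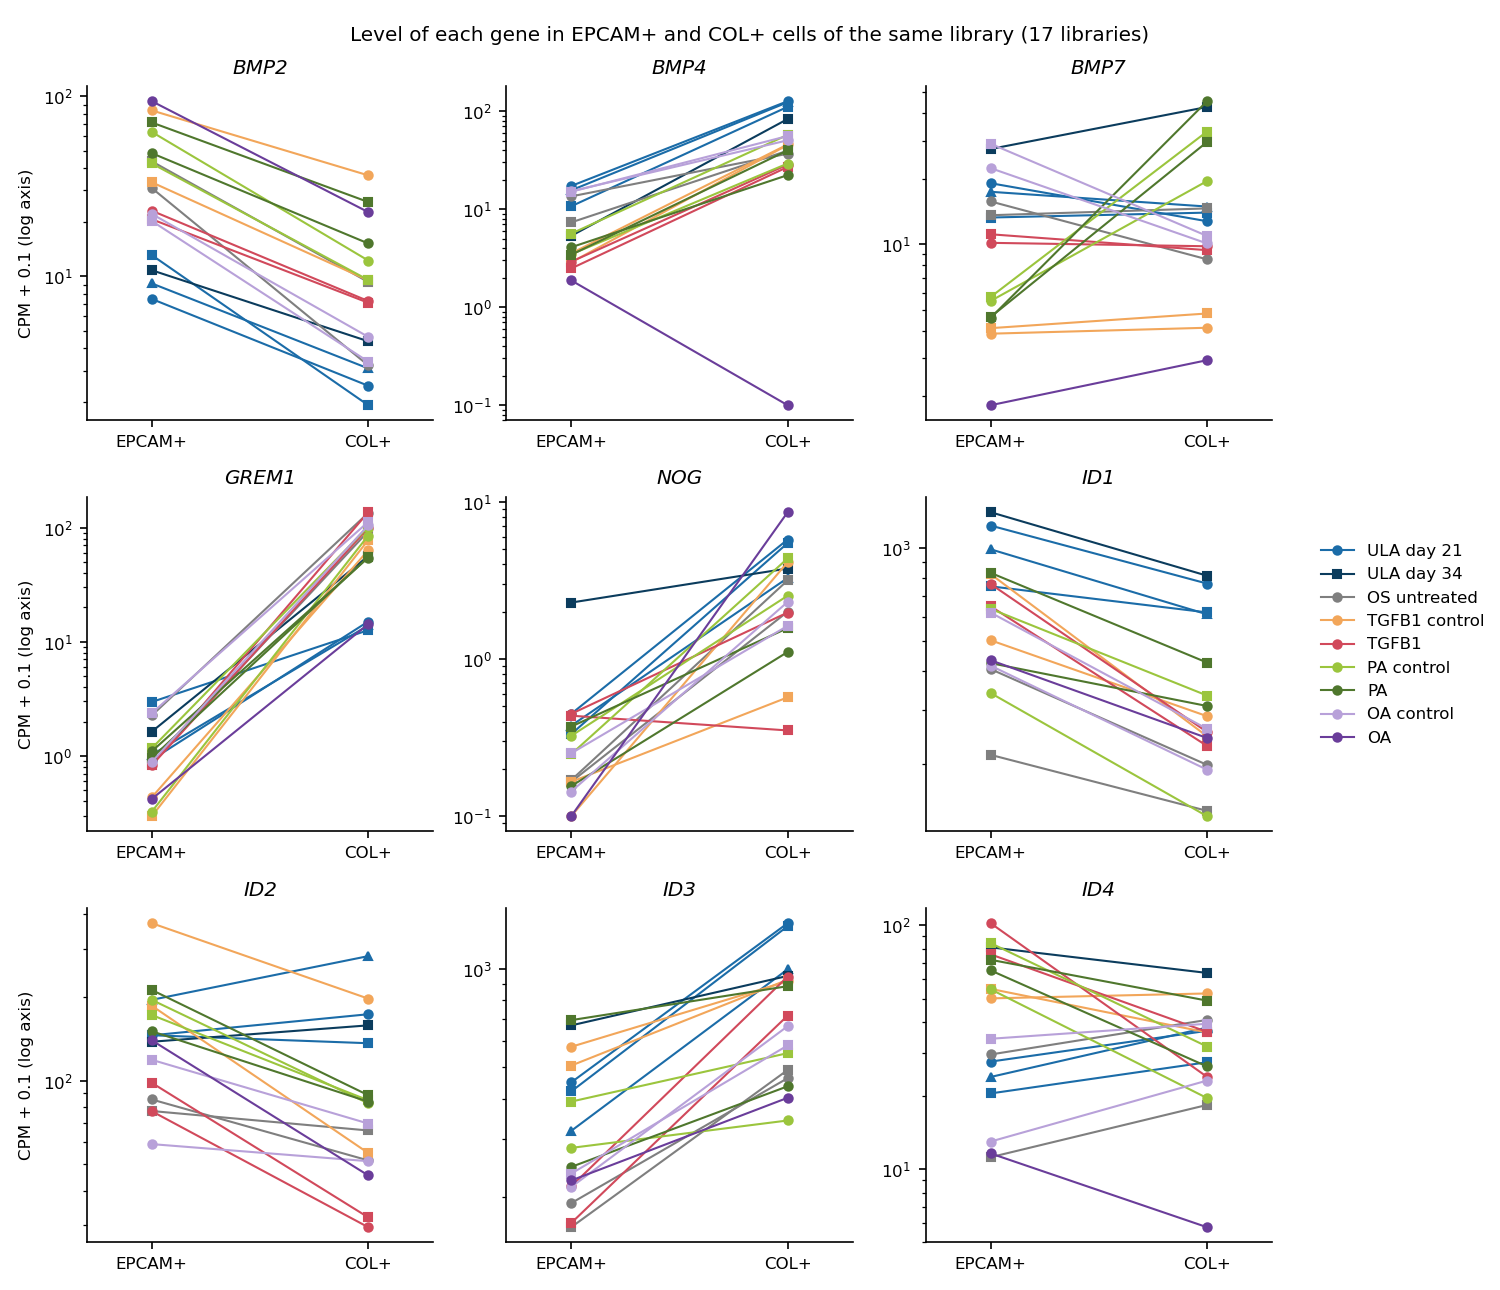
CPM + 0.1 on a log axis in EPCAM+ and COL+ cells, a line per library, for the 17 libraries with at least 50 cells of both classes. Lines for GREM1 and ID3 rise and those for BMP2 and ID1 fall in every library shown.

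Cells carrying EPCAM together with a collagen, which the 2 classes leave out, held an unequal share of some genes. Of all UMIs in the ULA libraries 36.7% to 70.7% lay in such cells, and for BMP7 it was 65.9% to 78.9%. BMP7 stood at 63.8, 52.4 and 58.7 CPM in these cells on ULA day 21, above the 12.7 to 19 CPM of the EPCAM+ and COL+ cells of the same libraries. The gap was smaller on day 34, at 32.4 and 50.6 CPM against 20.8 and 42.7 CPM in COL+ cells and 27.3 CPM in EPCAM+ cells of replicate 2. This comparison was chosen after the values were seen. Such cells can be doublets, mixtures with free RNA or cells that express both, and which of these they are was not tested.

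The pathway list holds 51 other genes of BMP signalling (ligands, receptors, SMADs, inhibitors, targets and ID partners). Of 47 tested in OS, 17 were higher and 9 lower in COL+ cells (50.8% of all genes differed), and of 41 tested in ULA, 24 were higher and 6 lower (53.1% of all genes). The largest in OS were GDF6, a ligand (7.03, SE 0.36), ENG, a co-receptor of endothelium and stroma (6.42, SE 0.29), BMPER, an extracellular BMP modulator (6.31, SE 1.13), and the homeobox target MSX1 (5.17, SE 0.26). On the EPCAM+ side were TMPRSS6, the hepatocyte protease that restrains hepcidin (-4.73, SE 0.46), BMP8B (-4.50, SE 0.54), BMP3 (-2.42, SE 0.75) and the type I receptor BMPR1B (-1.99, SE 0.45), all log2 differences past an edgeR adjusted p of 0.05.

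TGFB1, the cytokine most used to drive fibrotic change, addresses how the organoids respond to a fibrogenic signal. In whole libraries 4 of the 9 genes changed, beside 22.1% of 19366 genes tested: BMP7 and GREM1 rose, ID2 and BMP2 fell. BMP7 was at 10.2 and 10.6 CPM with TGFB1 and at 4.68 and 4.06 CPM in control, a log2 change of 1.46 (SE 0.18, edgeR adjusted p 1.18e-04). GREM1 was at 11.9 and 18.5 CPM against 3.73 and 4.09 CPM, a log2 change of 2.13 (SE 0.39, edgeR adjusted p 0.00193). Neither gene's groups overlapped. COL+ cells, the class with the higher GREM1 level, were 8.55% and 9.56% of cells with TGFB1 and 4.57% and 3.92% in control. Cells with both markers, which held 32.9% and 21.9% of GREM1 UMIs with TGFB1, were 15.8% and 8.65% of cells against 1.93% and 5.24%. In summed libraries more cells of a type and more RNA per cell cannot be told apart. Within COL+ cells GREM1 was at 99.1 and 136 CPM against 63.2 and 77.6 CPM, a log2 change of 0.97 (SE 0.28) that did not pass (edgeR adjusted p 0.223) and that reached 1.37 with an adjusted p of 0.0233 without control replicate 2.

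ID2 stood at 72.5 and 89.7 CPM with TGFB1 and at 370.3 and 178 CPM in control, a log2 change of -1.53 (SE 0.29, edgeR adjusted p 0.00248). BMP2 stood at 21.3 and 19.2 CPM against 80.2 and 31.4 CPM, and its log2 fold change of -1.22 (SE 0.41) passed narrowly (edgeR adjusted p 0.0484). Control replicate 1 gives both their highest control values. Without it BMP2 changed by -0.54 and no longer passed, as it did not without either TGFB1 replicate, with stricter cell limits, with doublets removed or fitted on these 4 libraries alone, while ID2 kept its call in each of 12 alternatives. ID1 was at 690.5 and 585 CPM against 508 and 790.1 CPM, the groups overlapping (log2 fold change 0.15, SE 0.35). ID3 was at 303 and 244 CPM against 637 and 529.8 CPM and did not pass in whole libraries (-0.89, SE 0.34, edgeR adjusted p 0.0741), though it did in DESeq2. ID4 went the other way, at 92.8 and 69.5 CPM with TGFB1 against 49.5 and 54.1 CPM in control, without overlap. It did not pass in edgeR or DESeq2, with an unadjusted edgeR p under 0.05.

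The 2 classes parted on ID3. In EPCAM+ cells ID3 fell from 576 and 505 CPM in control to 215 and 166 CPM with TGFB1, a log2 change of -1.30 (SE 0.35, edgeR adjusted p 0.0160). In COL+ cells it was at 914 and 924 CPM in control and at 945 and 718 CPM with TGFB1, a log2 change of 0.12 (SE 0.33, not past the threshold). The difference between the 2 changes was 1.48 (SE 0.18, edgeR adjusted p 1.55e-06), in edgeR the single member to differ, beside 6.01% of 18747 genes. The fall within EPCAM+ cells no longer passed when control replicate 1 or either TGFB1 replicate was left out (highest adjusted p 0.131), while the difference between classes passed in each of these. That difference was 0.79, still past the threshold, when cells with both markers were added to each class, and it did not pass without the library block. ID2 fell in EPCAM+ cells (77.4 and 98.0 against 370.3 and 186 CPM; -1.44, SE 0.31, edgeR adjusted p 0.00388, lost without TGFB1 replicate 1), and its value of -1.61 (SE 0.36) in COL+ cells did not pass in edgeR (adjusted p 0.135) and did in DESeq2. No difference of the ID2 change between classes was found (-0.05, SE 0.23).

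In EPCAM+ cells 4 of 8 members tested changed, beside 25.0% of 17527 genes, BMP7 among them at 10.1 and 11 CPM with TGFB1 and 3.78 and 4.01 CPM in control (1.60, SE 0.20, edgeR adjusted p 7.25e-05). BMP2 fell too (log2 fold change -1.16, SE 0.35, edgeR adjusted p 0.0274, lost without control replicate 1 or either TGFB1 replicate). Without TGFB1 replicate 1 this count was 1, and without control replicate 1 or TGFB1 replicate 2 it was 2. In COL+ cells edgeR called 0 of 9 members, beside 0.0141% of 14189 genes, with 3 members at an unadjusted p under 0.05 (BMP7, ID2 and GREM1) and 1 called by DESeq2 (ID2), and without control replicate 2 edgeR called 2. Other markers moved with these values. In EPCAM+ cells the 10 mesenchymal genes outside the rule summed to 6000 and 5208 CPM with TGFB1 and to 566 and 1170 CPM in control, with at least 9 of 10 detected. The highest of these sums was mostly VIM: across EPCAM+ cells of the OS libraries VIM reached 5601 CPM, COL1A1 405 CPM and none of the others more than 46.5 CPM. The 5 cycling genes summed to 18.1 and 15.1 CPM with TGFB1 against 353 and 206 CPM. The part of these markers in the changes of ID2, ID3 and BMP7 was not tested.

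**Figure D3:**
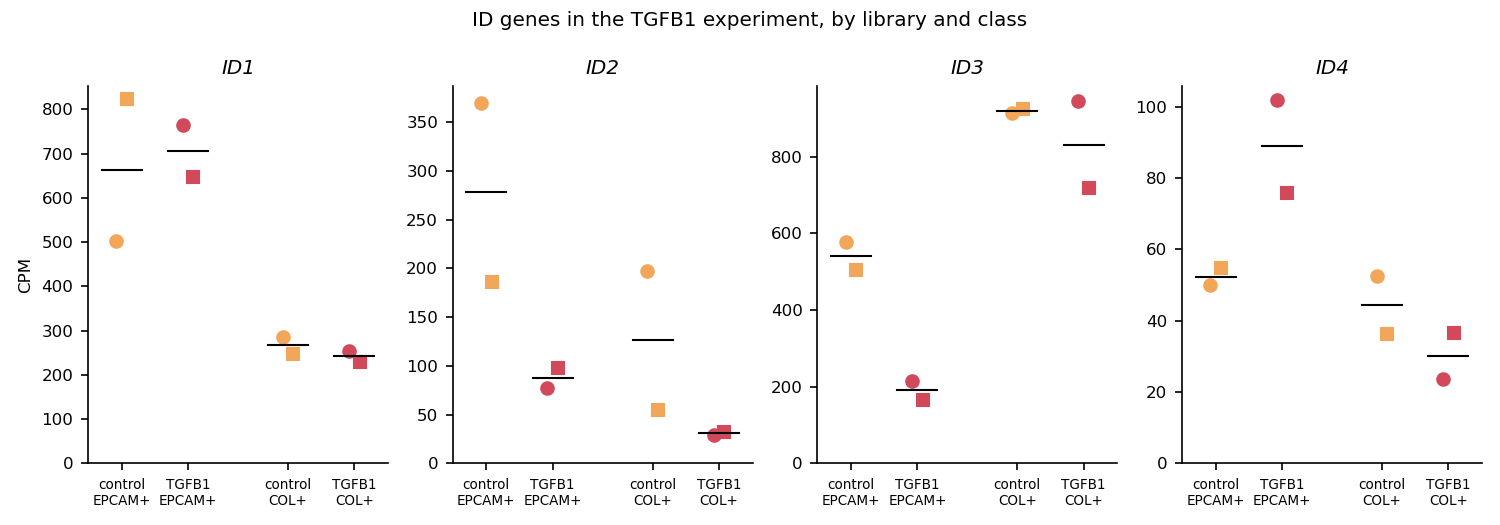
ID1 to ID4 in the TGFB1 experiment, in CPM from 0, a point per library and a line at the group mean, for EPCAM+ and COL+ cells. ID3 is at 215 CPM or less in both TGFB1 libraries in EPCAM+ cells and at 718 CPM or more in COL+ cells.

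Of 47 other pathway genes tested in whole libraries with TGFB1, 9 rose and 6 fell, beside 22.1% of all genes changed. BMP6, a ligand, rose by 3.97 (SE 0.36), the activin and BMP binder FST by 2.90 (SE 0.48), MSX2 by 2.11 (SE 0.25) and FSTL3, a relative of FST, by 2.01 (SE 0.27). The BMP antagonist CHRDL1 fell by 3.29 (SE 0.70), the BMP target ATOH8 by 1.79 (SE 0.42), BMPR1B by 1.39 (SE 0.29) and SMAD9, a receptor SMAD, by 1.24 (SE 0.37). These are log2 fold changes past an edgeR adjusted p of 0.05. Among the targets on the list MSX2 and HEY1 (1.74, SE 0.28) were thus higher and ATOH8 lower. Their median log2 fold change over the 47 genes was 0.08, against -0.05 over all genes.

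With PA no member passed the test. In edgeR 0 of 9 members passed in whole libraries, beside 0.0465% of 19366 genes, with 1 at an unadjusted p under 0.05 (GREM1) and 0 in DESeq2. In EPCAM+ cells 0 of 8 passed (0.114% of all genes called, 0 members at an unadjusted p under 0.05, 0 in DESeq2). In COL+ cells 0 of 9 passed (0% of all genes called, 1 at an unadjusted p under 0.05, again GREM1, and 0 in DESeq2). The PA change differed between the classes for 0 of 9 members (0.0107% of all genes, 0 at an unadjusted p under 0.05, 0 in DESeq2). GREM1 was at 3.95 and 4.11 CPM with PA and at 6.40 and 10.1 CPM in control (log2 fold change -1.0, SE 0.39). In COL+ cells GREM1 was at 54.5 and 54.9 CPM with PA and at 85.0 and 102 CPM in control, without overlap. PA control replicate 1 was the smallest library of the series, with 6880807 UMIs in kept cells, which limits what these tests can find. ID3 was at 269 and 705 CPM against 307 and 405 CPM, so the PA libraries bracketed their controls. Of the 47 pathway genes tested none passed.

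With OA, 6 of 9 members changed in whole libraries, beside 43.3% of 19366 genes: BMP2 and ID2 rose, and BMP4, BMP7, GREM1 and NOG fell. BMP2 was at 90.6 and 104 CPM with OA and at 17.6 and 15.2 CPM in control (log2 fold change 2.90, SE 0.43, edgeR adjusted p 1.62e-04). BMP4 was at 1.76 and 1.92 CPM against 22.4 and 27.1 CPM (-3.40, SE 0.32, edgeR adjusted p 6.99e-06). GREM1 was at 0.408 and 0.826 CPM against 23.0 and 36.7 CPM (-5.24, SE 0.46, edgeR adjusted p 3.98e-06). For all 3 the groups were far apart. In the same libraries the 10 mesenchymal genes summed to 293 and 258 CPM with OA and to 2913 and 4504 CPM in control, the 8 hepatocyte genes to 23864 and 23320 against 12538 and 9032 CPM, and the 5 cycling genes to 93.9 and 105 against 256 and 289 CPM, and their part in these changes was not tested. BMP7 was at 2.17 and 2.40 CPM against 19.6 and 23.7 CPM (-2.90, SE 0.19, edgeR adjusted p 6.95e-07). ID2 was at 136 and 135 CPM against 55.8 and 88.7 CPM (1.26, SE 0.29, edgeR adjusted p 0.00345). NOG, at 0.260 and 0.211 CPM against 0.954 and 1.56 CPM (-2.05, SE 0.59, edgeR adjusted p 0.0127), lost its call without OA control replicate 2 or either OA replicate.

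The collagen side was nearly missing from the OA libraries: COL+ cells were 1.94% and 1.18% of cells, against 35.3% and 37.5% in control, and fewer such cells or less collagen RNA per cell would both give this. COL+ cells carry more BMP4 and GREM1 than EPCAM+ cells, and the part of free RNA from them in the EPCAM+ values below was not tested. Within EPCAM+ cells BMP2 was at 93.8 and 105 CPM against 22.1 and 20.2 CPM (2.46, SE 0.37, edgeR adjusted p 2.20e-04), BMP4 at 1.78 and 1.81 against 15.2 and 15.0 CPM (-2.84, SE 0.28, edgeR adjusted p 1.31e-05), and BMP7 at 1.72 and 2.08 against 22.3 and 28.9 CPM (-3.51, SE 0.21, edgeR adjusted p 4.90e-07). All 3 kept their call in each of 13 alternatives. In all 5 of 8 members changed in EPCAM+ cells, beside 35.9% of 17527 genes. The other 2 rest on single libraries: ID2 (0.92, SE 0.30, edgeR adjusted p 0.0304) lost its call without OA control replicate 1, without either OA replicate and without TMM scaling (1.39 without OA control replicate 2), and GREM1 (-1.90, SE 0.56, edgeR adjusted p 0.0165), at 0.320 to 2.27 CPM in these 4 libraries, without OA control replicate 2 or either OA replicate and with stricter cell limits, so that 3 members were called without either OA replicate. The 10 mesenchymal genes summed to 222 and 192 CPM in EPCAM+ cells with OA and to 926 and 1085 CPM in control, with 8 to 10 detected, and the 5 gut genes to 3599 and 2960.2 against 598 and 361 CPM with all detected. Their part in these values was not tested.

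In the 60 COL+ cells of OA replicate 1 no BMP4 UMI was found among 353217, against a mean of 53.1 CPM in control, which puts BMP4 at least 6.25-fold lower from a floor of 3 counts (counting error only). GREM1 was at 14.2 CPM there, from 5 UMIs, and at 105 and 112 CPM in control (-3.13, SE 0.57). These were the 2 of 9 members called in COL+ cells, beside 3.95% of 14189 genes. OA replicate 2, left out for its 38 COL+ cells, held BMP4 at 17.2 CPM (4 UMIs) and GREM1 at 112 CPM (26 UMIs), so its GREM1 level was that of the controls. Its BMP4 level lay above the 8.49 CPM floor behind the 6.25-fold bound, which covers OA replicate 1 only. ID1 and ID3 did not pass with OA in whole libraries, EPCAM+ or COL+ cells, with log2 fold changes of 0.45 (SE 0.35) and -0.05 (SE 0.33) in whole libraries. Between the classes, 2 of 9 members differed in their OA change, beside 8.49% of 18747 genes, ID2 by -1.77 (SE 0.38, edgeR adjusted p 0.00361) and ID3 by -1.27 (SE 0.24, edgeR adjusted p 6.37e-04), where the median over all genes was -0.80. Both calls rest on 1 OA library, on the library block and on TMM scaling, without which they were -1.13 and -0.63 and did not pass.

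Of the 47 other pathway genes 8 rose and 20 fell with OA, beside 43.3% of all genes changed. BMP8A (3.40, SE 0.49), BMP8B (2.88, SE 0.30), the type I receptor ACVRL1 (2.57, SE 0.45) and HAMP, which encodes hepcidin (2.33, SE 0.60), rose most. GDF5, a ligand, had 0 UMIs in both OA libraries and 29 in control, at least 9.62-fold lower from a floor of 3 counts over the group. BMPER (-4.94, SE 0.90), the antagonist SOSTDC1 (-3.98, SE 0.34) and TCF4, a partner of ID proteins (-3.97, SE 0.28), fell next, all log2 fold changes past an edgeR adjusted p of 0.05. BMPER, SOSTDC1 and TCF4 were also among the genes higher in COL+ than EPCAM+ cells. Within EPCAM+ cells 9 pathway genes rose and 11 fell of 43 tested, beside 35.9% of all genes.

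**Figure D4:**
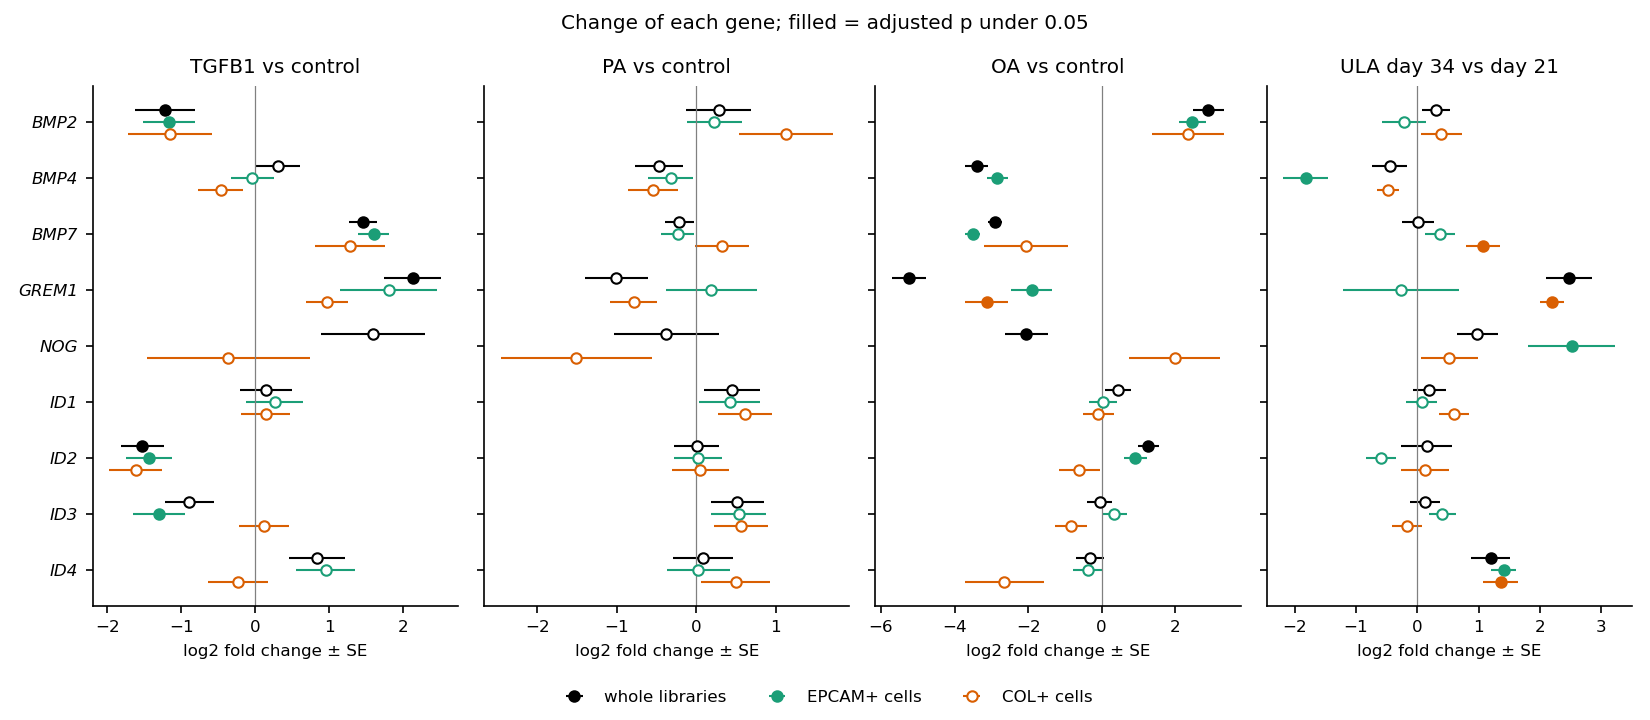
Log2 fold change with its standard error for each gene in 4 comparisons, for whole libraries, EPCAM+ and COL+ cells. Filled points passed an adjusted p of 0.05. BMP4 in COL+ cells with OA is left out because the COL+ cells of OA replicate 1 held no BMP4 UMI. With TGFB1 the ID3 points of the 2 classes lie apart at -1.30 and 0.12.

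The OA controls were also compared with the untreated OS libraries. In whole libraries edgeR called 0 of 9 members, beside 0.444% of 19366 genes, with 3 at an unadjusted p under 0.05 (BMP4, BMP7 and ID1) and 1 in DESeq2 (BMP7). In EPCAM+ cells BMP7 was at 22.3 and 28.9 CPM in OA control and 15.6 and 13.5 CPM in untreated organoids (0.97, SE 0.19, edgeR adjusted p 0.0340), 1 of 8 members beside 1.28% of all genes. That call was lost when any 1 of the 4 libraries was left out, with cells of both markers kept and without TMM scaling. In COL+ cells 0 of 9 passed (0.0211% of all genes, 1 at an unadjusted p under 0.05, BMP4, and 0 in DESeq2). Between the classes 0 of 9 differed (0.0853% of all genes, 1 at an unadjusted p under 0.05, BMP7, and 0 in DESeq2).

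The changes with each treatment, each against its own controls, were then compared with one another. Between the PA and the OA change 5 of 9 members differed, beside 20.5% of genes: BMP2 (-2.62, SE 0.58), BMP4 (2.93, SE 0.43), BMP7 (2.69, SE 0.26), GREM1 (4.24, SE 0.58) and ID2 (-1.26, SE 0.40), the last with an edgeR adjusted p of 0.0423 that was lost without 7 of the 8 libraries in turn (OA control replicates 1 and 2, OA replicates 1 and 2, PA control replicates 1 and 2 and PA replicate 1), with stricter cell limits and without TMM scaling. PA and OA were given at the same stated dose, in experiments whose libraries also differ in software version and share of COL+ cells. For ID1 the difference was 0.01 (SE 0.50) and for ID3 0.57 (SE 0.47), neither past the threshold. Between the TGFB1 and the PA change 3 of 9 differed, beside 8.79% of genes: BMP7 (1.67, SE 0.26), GREM1 (3.13, SE 0.55) and ID2 (-1.53, SE 0.40, edgeR adjusted p 0.0325, lost without TGFB1 control replicate 1, either TGFB1 replicate, either PA control replicate or PA replicate 2). Between the TGFB1 and the OA change 6 of 9 differed, beside 31.8% of genes, with BMP7 (4.36, SE 0.26) and GREM1 (7.37, SE 0.60) up against down, and NOG (3.64, SE 0.92) lost without TGFB1 control replicate 2. BMP2 (-4.11, SE 0.59, -3.38 without TGFB1 control replicate 1) and ID2 (-2.79, SE 0.41) lay the other way round. BMP4 differed by 3.71 (SE 0.44).

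In ULA culture the comparison is of an earlier with a later day. Only the day 34 organoids had the 10 more minutes of trypsin and the added wash, so day and dissociation cannot be told apart. In whole libraries 2 of 9 members changed from day 21 to day 34, GREM1 and ID4, beside 15.8% of 22261 genes. GREM1 was at 4.56, 6.90 and 4.69 CPM on day 21 and at 45.4 and 19.6 CPM on day 34, without overlap (log2 fold change 2.48, SE 0.37, edgeR adjusted p 0.00846). Leaving out day 21 replicate 3 brought the GREM1 adjusted p to 0.0638, and without day 34 replicate 1 the change was 1.76. ID4 was at 54.1, 31.8 and 50.3 CPM on day 21 and at 148 and 78.3 CPM on day 34 (1.20, SE 0.32, edgeR adjusted p 0.0459), a call lost without any 1 of the 3 day 21 libraries or day 34 replicate 1, and with stricter cell limits. The number of members called was 0 without day 21 replicate 3 and 1 without either other day 21 library. ID1, ID2 and ID3 did not pass, with log2 fold changes of 0.19 (SE 0.27), 0.15 (SE 0.41) and 0.13 (SE 0.25).

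The rise of GREM1 was found within COL+ cells, at 14.9, 12.5 and 13.8 CPM on day 21 against 80.8 and 56.1 CPM on day 34 (2.20, SE 0.19, edgeR adjusted p 3.19e-04), and held in each of 14 alternatives. BMP4 in the same cells was at 127, 111 and 123 CPM and then at 104 and 83.2 CPM (-0.48, SE 0.18, edgeR adjusted p 0.0905). ID4 rose in COL+ cells (36.8, 27.3 and 37.9 against 125 and 63.7 CPM; 1.36, SE 0.29, edgeR adjusted p 0.0172), a call lost without any 1 of the 3 day 21 libraries or with cells of both markers kept, and 0.80 without day 34 replicate 1. BMP7 rose too (12.7, 13.9 and 14.8 against 20.8 and 42.7 CPM; 1.07, SE 0.28, edgeR adjusted p 0.0342), and lost its call without any 1 of the 3 day 21 libraries or day 34 replicate 2, and its value was -0.17 when cells with both markers were added. These are 3 of 9 members, beside 17.7% of 17414 genes, and the count was 1 without any 1 day 21 library. In EPCAM+ cells, with day 34 replicate 2 as the single day 34 library, edgeR called ID4, BMP4 and NOG. ID4 rose from 27.5, 20.3 and 23.7 to 81.1 CPM (1.41, SE 0.20). BMP4 fell from 17.2, 10.6 and 15.5 to 5.25 CPM (-1.82, SE 0.36), a call lost with cells of both markers kept. NOG was at 0.348, 0.233 and 0.277 CPM on day 21 (8, 3 and 6 UMIs) and at 2.19 CPM on day 34 (10 UMIs), a log2 change of 2.52 (SE 0.72). NOG passed the filter on low counts through its day 34 value alone, so its call is not separate support. That call was lost without day 21 replicate 3, with stricter cell limits and in DESeq2. The change from day 21 to day 34 differed between the classes for 5 of 9 members, beside 21.3% of 19879 genes: BMP4 (1.18, SE 0.31), BMP7 (1.16, SE 0.24), ID3 (-0.89, SE 0.13), ID4 (-0.61, SE 0.18, lost without day 21 replicate 1, with stricter cell limits and in DESeq2) and NOG (-2.96, SE 0.70). None of the 5 passed when cells with both markers were added to each class, and without the library block BMP4, ID3 and ID4 did not. EPCAM+ cells were 18.3%, 11.7% and 18.8% of cells on day 21 and 0.532% and 6.01% on day 34, and the 8 hepatocyte genes summed to 2810, 2459 and 2669 CPM in whole day 21 libraries and to 98.3 and 864 CPM in the day 34 ones. Within EPCAM+ cells the 4 ductal genes summed to 263, 229 and 248.6 CPM on day 21 and to 1421 CPM on day 34. The 10 mesenchymal genes there summed to 306, 279 and 280.1 and to 753 CPM, and the 5 gut genes to 657, 567 and 677 and to 115 CPM. Within COL+ cells the 4 neural genes summed to 9.62, 10.2 and 7.29 CPM on day 21 and to 104 and 18.1 CPM on day 34. The 4 ductal genes there summed to 22.8, 22.7 and 29.4 and to 71.6 and 389 CPM. Single genes made up most of several of these day 34 values. In EPCAM+ cells these were SPP1 (1214 CPM) for the ductal and VIM (615 CPM) for the mesenchymal sum. In COL+ cells they were STMN2 (96.7 CPM) for the higher neural and SPP1 (304 CPM) for the higher ductal sum. The part of these markers in these changes was not tested.

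GREM1 UMIs were set against BMP4 UMIs of the same COL+ cells, a pair chosen after its values were seen and given with no test. The ratio covers RNA of 1 antagonist and 1 ligand and leaves out NOG, BMP2, BMP7 and all proteins. On ULA day 21 there were 0.118, 0.113 and 0.112 GREM1 UMIs per BMP4 UMI, and on day 34 there were 0.774 and 0.675. In OS organoids the ratio was 3.66 and 2.35 untreated, 1.38 and 1.72 in TGFB1 control, 3.48 and 5.07 with TGFB1, 2.92 and 1.77 in PA control, 2.45 and 1.38 with PA, and 2.07 and 2.01 in OA control. Each of these 12 OS libraries lay above every ULA library, and both TGFB1 libraries lay above both of their controls. Culture, day and gene models differ between ULA and OS and cannot be told apart. BMP4 in COL+ cells was at 28.5 and 26.9 CPM with TGFB1 and at 45.7 and 45.2 CPM in control. Some ratios rest on few BMP4 UMIs: 12 in PA control replicate 1, 22 in PA replicate 1 and 34 in TGFB1 control replicate 1.

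**Figure D5:**
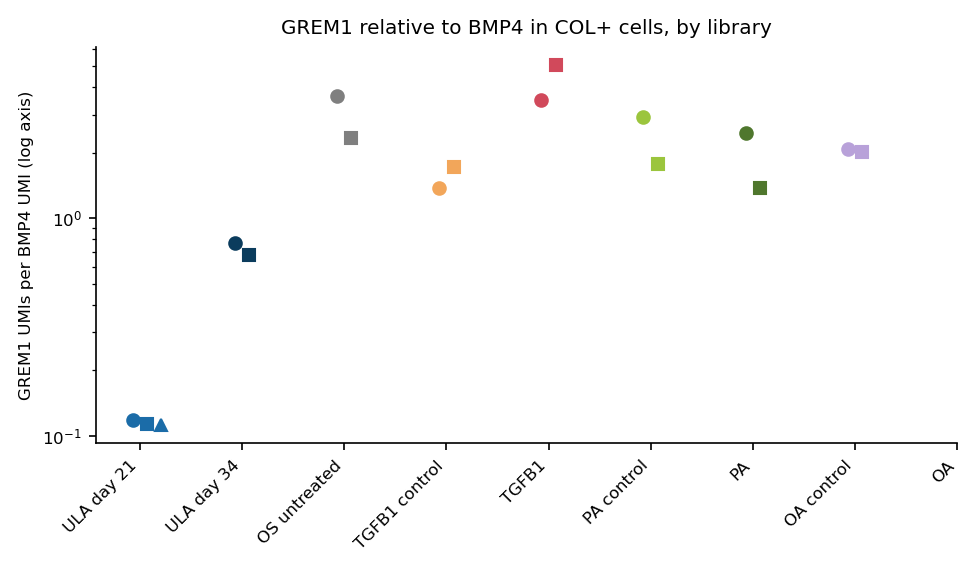
GREM1 UMIs per BMP4 UMI in COL+ cells on a log axis, a point per library of at least 50 COL+ cells; circles, squares and triangles are replicates 1, 2 and 3. ULA day 21 lies at 0.112 to 0.118 and ULA day 34 at 0.675 and 0.774. OA has no point: the COL+ cells of replicate 1 held no BMP4 UMI, and replicate 2 had only 38 COL+ cells.

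Of the other pathway genes 9 of 45 tested rose and 3 fell from ULA day 21 to day 34 in whole libraries, beside 15.8% of all genes changed. GDF5 (3.48, SE 0.66), the secreted VWC2 (3.42, SE 0.67), GDF7, a ligand (3.30, SE 0.51), and FSTL3 (1.89, SE 0.28) rose most, and BAMBI, a decoy receptor (-1.75, SE 0.19), BMPR1B (-1.68, SE 0.37) and MSX2 (-0.81, SE 0.19) fell, all log2 fold changes past an edgeR adjusted p of 0.05. FST, also among those that rose, changed by 1.82 (SE 0.22).

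Across the 19 libraries, ID1 and ID3 were the pair of targets most alike (Pearson r 0.81 of log2(CPM + 1)), BMP4 and BMP7 the most alike ligands (0.93), and BMP2 ran against both (-0.91 and -0.92). These are descriptions over libraries that share culture, experiment and depth. Among 11146 genes with a mean of at least 5 CPM, CNRIP1 (0.98), ANGPT1, PDPN and RBMS3 were among the 5 most like BMP4, and the 5 most like GREM1 were KCNE4 (0.97), COL5A1, FBLN5, SULF1 and GLIPR1. The 5 most like ID1 were SNHG12 (0.86), SAP18, TRNAU1AP, LAMTOR5 and TRMT11, and those most like ID3 were PLEKHH3 (0.92), THNSL2, SLC36A4, SEC22A and MBTPS2.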

How the data were processed

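The authors deposited, per sample, a 10x matrix of UMI counts. The submitters' processing notes name bcl2fastq, Cell Ranger 3.0.2, Scanpy and GRCh38, and per the file headers the OA, OA control and untreated matrices come from Cell Ranger 6.0.2. Genes were matched by Ensembl identifier. Of 138053 barcodes, 120240 cells passed the minimum of 500 genes and the maximum of 20% mitochondrial counts (37 MT- genes listed in ULA, 13 in OS). Predicted doublets were kept in the main tests. An alternative removed the highest Scrublet scores at 0.8% per 1000 barcodes, since the caller's own threshold marked under 0.5% of cells in 17 of 19 libraries. Counts were summed per library and per class of at least 50 cells. Main tests were edgeR 4.0.16 quasi-likelihood tests (R 4.3.3, TMM, filterByExpr) with Benjamini-Hochberg adjustment over all genes at 0.05, fitted jointly over the OS libraries and separately over ULA. Comparisons between classes carry a library block. The steps were tested on simulated counts. DESeq2 1.42.0 and the other settings are in the closing section. Total UMIs were 7476533 to 92522222 per library. Members and lists were chosen with earlier results of these data known. Named pathway genes are up to 4 per direction with the largest change among those called, and named look-alikes the 5 with the highest Pearson r, of which 1 is not reported here. The alternative with protein-coding mitochondrial genes only was added after seeing the data. Proteins and the promoters of BMP2, BMP7 and NOG are not used here.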

Additional observations from a re-analysis of the deposited data

Results flagged for a closer look

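Members whose change differed between COL+ and EPCAM+ cells, by the test of the difference itself in edgeR, are given here as values. With TGFB1 the ID3 change differed by 1.48 (SE 0.18, adjusted p 1.55e-06), and by 0.79 when cells with both markers were added to each class, and it did not pass without the library block. With OA the ID2 change differed by -1.77 and the ID3 change by -1.27, each with a single OA library of 60 COL+ cells, where the median over all genes was -0.80. Neither passed without TMM scaling (-1.13 and -0.63) or without the library block. From ULA day 21 to day 34 the change differed by 1.18 for BMP4, 1.16 for BMP7, -0.89 for ID3, -0.61 for ID4 and -2.96 for NOG, with a single day 34 library. None of these passed when cells with both markers were added (BMP4 then at -0.082), and BMP4, ID3 and ID4 did not pass without the library block.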

How the results depend on the processing

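Of 65 member calls, 40 held in every alternative run for them and 25 were lost in at least 1. No called value changed sign without TMM scaling. Leaving out that scaling shifted the median of all genes by -0.19 with TGFB1, -0.34 with OA and 0.62 in the class difference with OA, and the share of higher calls went from 49% to 31.6% with TGFB1 from 50.1% to 30.6% with OA and from 18.2% to 69.7% in the class difference with OA, and moved by over 10 percentage points in most other comparisons, as in ULA EPCAM+ cells (51.7% to 80.6%). The causes of the changes below were not tested.

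Without the filter on low counts the number of members called, with the share of all genes called in the same fit in brackets, was 7 for TGFB1 in whole libraries (18.9%), 7 in EPCAM+ (18.9%) and 1 in COL+ cells (1.49%), 2 for its class difference (5.74%), 1 for PA in whole libraries (0.583%), 5 for TGFB1 against PA (9.95%) and 4 for OA in COL+ cells (3.61%). DESeq2 called 1 for OA control against untreated in whole libraries (3.62%), 1 for TGFB1 in COL+ cells (0.768%) and 2 for the TGFB1 class difference (6.73%), and differed by 1 or 2 elsewhere: 5 for TGFB1 (25.1%) and 4 for TGFB1 against PA (11.4%) in whole libraries, 9 for COL+ against EPCAM+ cells in OS (56.5%, adding BMP4 and BMP7), and for ULA 3 in whole libraries (22.5%), 2 in EPCAM+ (14.2%) and 4 in COL+ cells (21.5%) and 4 for its class difference (11.7%). Removing predicted doublets (2.75% to 10.7% of kept cells per library) ended the call of BMP2 with TGFB1 in whole libraries and of no other member. With cells of both markers kept, it was 0 for OA control against untreated in EPCAM+ cells (0.960%), 2 for TGFB1 (4.24%) and 4 for OA (19.8%) in COL+ cells, 4 for the OA class difference (7.84%), 1 for ULA COL+ cells (13.5%) and 0 for the ULA class difference (13.5%). Without TMM it was 0 for OA control against untreated in EPCAM+ cells (2.79%), 0 for the OA class difference (5.33%) and 5 for ULA EPCAM+ cells (24.8%). With stricter cell limits it was 1 for ULA in whole libraries (12.5%). Without the library block it was 0 for the TGFB1 (1.99%), 0 for the OA (1.74%) and 2 for the ULA class difference (8.63%).

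With the replicate block it was 0 for OA control against untreated in EPCAM+ cells (0.0114%), 2 for the TGFB1 class difference (7.88%) and 0 for ULA in whole libraries (0%, with 1 residual degree of freedom). The labels do not say that replicate numbers pair the samples, and same-numbered deviations correlated at -0.50 (TGFB1), 0.14 (PA), 0.06 (OA), -0.64 (OA control and untreated) and -0.33 (ULA). The class comparisons are paired by library. No paired analysis was possible for the replicate number in ULA EPCAM+ cells, or on top of the library block in the ULA classes, because no residual degrees of freedom were left.

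Leaving out 1 library at a time gave 1 to 4 members for TGFB1 in EPCAM+ cells (10.5% to 30% of all genes), 0 to 2 in COL+ cells (0% to 8.41%) and 1 to 2 for its class difference (3.23% to 4.79%), 3 to 4 for OA in EPCAM+ cells (17.9% to 24.6%), 0 to 0 for OA control against untreated in EPCAM+ cells (0% to 1.89%) and 0 to 1 for its class difference (0.0333% to 0.850%), and 0 to 3 for ULA in whole libraries (3.14% to 31.3%) and 1 to 4 in COL+ cells (5.50% to 25.3%). Direction turned with both-marker cells kept for GREM1 (ULA EPCAM+ cells, 2.77), BMP7 (ULA COL+ cells, -0.17, and COL+ against EPCAM+ cells in ULA, -0.17) and BMP4 (ULA class difference, -0.082). COL+ against EPCAM+ cells in ULA ran from -0.49 to 0.14 for BMP7 and from -0.10 to 0.28 for ID4 when 1 library was left out. Depth limits NOG and GREM1 most, which had few UMIs in EPCAM+ cells.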
